A study of Mus musculus with 28 samples.

Results

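*Ly6a* and 6 of its relatives in the Ly6 gene family (*Ly6c1*, *Ly6c2*, *Ly6d*, *Ly6e*, *Ly6k* and *Ly6h*) were followed across sorted cells of the mouse mammary gland. These 7 genes are 7 of the 50600 rows of the count table, found by matching Ensembl gene IDs to symbols. *Ly6a* was chosen on its values, because it was higher in GFP+ than in tdTomato+ stroma and lower in GFP+ than in tdTomato+ luminal cells. Its values between these subsets are therefore given as a description without a test, and the question tested was whether its relatives have the same opposite order in the 2 lineages. The relatives were listed by family name, but with earlier results of these data known. They are not all genes of that name, since others such as *Ly6i* were counted with the wider family.

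The cells came from adult *PdgfrαCre R26mTmG* mice on a C57BL/6 background. In these mice Cre driven by the *Pdgfra* promoter removes tdTomato. Cells in which this has happened, and their progeny, carry GFP for good, while cells in which it has not keep tdTomato. All 8 groups share this genotype. FACS of lineage-depleted cells (CD31, CD45 and Ter119 removed) gave a stromal gate (CD49f- EpCAM-) and a luminal gate (CD49flo EpCAM+), and GFP+ and tdTomato+ cells were collected from each. Of 7 mice, 4 were untreated and 3 received estrogen plus progesterone (E+P), and each mouse gave 1 library of each of the 4 populations, so that 28 libraries form 4 groups with n = 4 and 4 groups with n = 3. A GFP label records past as well as present Cre expression, so it does not say that a cell still expressed *Pdgfra* when sorted. In these bulk libraries, fewer cells of a kind and less RNA of a gene per cell cannot be told apart.

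Ly6 proteins are small, cysteine-rich proteins that are mostly held on the outer cell membrane by a glycosylphosphatidylinositol anchor. *Ly6a* encodes Sca1, an antigen used to isolate haematopoietic stem cells, to mark adipocyte and other mesenchymal progenitors, and, in the mammary gland, to split luminal cells into hormone-receptor-positive (Sca1+) and hormone-receptor-negative (Sca1-) cells. *Ly6c1* and *Ly6c2* encode the Ly6C antigens of endothelial cells, monocytes and lymphocytes. *Ly6e* is a widely expressed interferon-inducible member, *Ly6d* is known from early B cells and squamous and luminal epithelia, *Ly6k* from the testis and *Ly6h* from the brain.

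The 7 genes lie within 805 kb of chromosome 15 (GRCm38, GENCODE M21). *Ly6a* (ENSMUSG00000075602.10) spans chr15:74994877-74998031 on the minus strand. *Ly6c1* (chr15:75044018-75048830) and *Ly6c2* (chr15:75108158-75111970) follow on the same strand, and *Ly6e* (chr15:74955051-74959905) lies on the plus strand. *Ly6d* (chr15:74762056-74763620), *Ly6k* (chr15:74796874-74799986) and *Ly6h* (chr15:75551268-75567255) are on the minus strand. *Ly6k* overlaps the antisense gene *Gm17189*, and because the strand setting of the counting is not given in the sources used here, reads over the stretches they share cannot be told apart. All 7 are annotated as protein-coding, and all values below are counts of reads over a whole gene.

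*Ly6a*, *Ly6c1* and *Ly6c2* are near copies, which bears on every count of them. Over the first annotated isoform of each, the coding sequences of *Ly6a* and *Ly6c1* were 82.0% identical in a global alignment and those of *Ly6c1* and *Ly6c2* 97.7%, while *Ly6a* and *Ly6e* were 53.8% identical. The first 60 coding bases, printed 5′ to 3′ with capitals where a base differs from *Ly6a*, hold 2 differences in *Ly6c1* and 3 in *Ly6c2*, and show a stretch in which short reads are hard to assign:
Ly6a: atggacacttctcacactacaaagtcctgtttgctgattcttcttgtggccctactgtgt
Ly6c1: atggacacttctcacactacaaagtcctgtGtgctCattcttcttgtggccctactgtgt
Ly6c2: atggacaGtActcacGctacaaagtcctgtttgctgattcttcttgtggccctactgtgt

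Coding bases 167 to 226, the ungapped stretch of 60 with the most differences between *Ly6a* and *Ly6c1*, hold 20 differences from *Ly6a* in both relatives and are identical in *Ly6c1* and *Ly6c2*. They show where reads of *Ly6a* can be told from those of the Ly6C pair, and where *Ly6c1* and *Ly6c2* cannot be told from each other:
Ly6a: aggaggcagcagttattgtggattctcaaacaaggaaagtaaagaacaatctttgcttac
Ly6c1: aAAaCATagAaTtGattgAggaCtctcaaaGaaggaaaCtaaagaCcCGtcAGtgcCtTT
Ly6c2: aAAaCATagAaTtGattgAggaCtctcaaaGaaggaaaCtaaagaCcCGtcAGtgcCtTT

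Of all stretches of 75 bases in the annotated transcripts of a gene, 6.33% of those of *Ly6a* occurred without a mismatch in another gene (77 in *Ly6c1* and 6 in *Ly6i*), as did 19.0% of those of *Ly6c1* and 9.46% of those of *Ly6c2*. With up to 2 mismatches against the genes of this interval, the shares were 28.5% for *Ly6a* and 68.7% for *Ly6c1*. *Ly6d*, *Ly6e* and *Ly6h* had 0 such stretches, and the 24.5% of *Ly6k* all lay in *Gm17189*. How reads with several matches were counted is not given in the sources used here, so the values of *Ly6a*, *Ly6c1* and *Ly6c2* carry this uncertainty.

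RefSeq promoter entries (GRCm38.p6, the 300 bases from 250 before to 50 after a start) matched 2 of the 7 genes, *Ly6c1* and *Ly6c2*, with 2 entries each. The upstream entries of the pair, whose windows are offset, had 208 identical bases of 266 aligned base pairs (78.2%), beside 16 gap columns. They are shown because these near copies differed widely in level, at chr15:75048788-75049087 for *Ly6c1* and chr15:75111922-75112221 for *Ly6c2*, both on the minus strand, with capitals where aligned bases differ or lie against a gap and the overhanging ends in lower case:
Ly6c1: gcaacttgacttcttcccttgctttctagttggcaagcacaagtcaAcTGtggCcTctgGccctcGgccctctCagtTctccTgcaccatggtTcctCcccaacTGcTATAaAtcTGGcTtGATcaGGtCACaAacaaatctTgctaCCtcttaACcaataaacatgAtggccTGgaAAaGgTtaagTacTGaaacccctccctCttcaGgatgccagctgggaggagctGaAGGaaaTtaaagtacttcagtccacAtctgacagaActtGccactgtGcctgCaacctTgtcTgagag
Ly6c2: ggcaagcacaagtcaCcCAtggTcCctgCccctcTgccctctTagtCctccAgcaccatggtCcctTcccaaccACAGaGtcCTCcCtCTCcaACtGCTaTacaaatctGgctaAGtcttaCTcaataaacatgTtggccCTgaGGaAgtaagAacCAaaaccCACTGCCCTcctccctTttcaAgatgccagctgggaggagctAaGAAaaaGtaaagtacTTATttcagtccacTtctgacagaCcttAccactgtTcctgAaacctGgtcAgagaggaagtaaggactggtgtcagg
Read on both strands, none of the 4 entries held any of 4 motifs searched. Of 32544 promoters of this length, 3.45% held the interferon-stimulated response core (GAAA, any 2 bases, GAAA), 8.33% the gamma-activated site TTCNNNGAA, 0.0707% the oestrogen response element (GGTCA, any 3 bases, TGACC) and 18.9% the progesterone response half-site AGAACA. The absence of these letters is a description of these windows alone.

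The libraries held 8623383 to 24583803 gene counts each (median 15329083.5). Levels are given as CPM, counts scaled to the TMM-adjusted library size, on which 3 reads correspond to between 0.116 and 0.302 CPM, a floor that covers counting error only. Markers matched the gates in part. GFP+ stroma held summed fibroblast markers of 36300 to 67000 CPM, and all luminal libraries held luminal epithelial markers of at least 4590 CPM. The tdTomato+ stroma held pericyte and smooth muscle markers of 7270 to 10500 CPM, skeletal muscle markers of 2400 to 22000 CPM and fibroblast markers of only 2190 to 7520 CPM. *Pdgfra* itself had a mean of 158 CPM in untreated and 61.2 CPM in E+P tdTomato+ stroma, against 2030 and 2360 CPM in GFP+ stroma. A low-count filter was passed by 5 of the 7 genes in each fit, and *Ly6c2* and *Ly6h* did not enter these fits. Differences were tested with edgeR over all genes and called at a Benjamini-Hochberg adjusted p under 0.01.

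**Figure D1:**
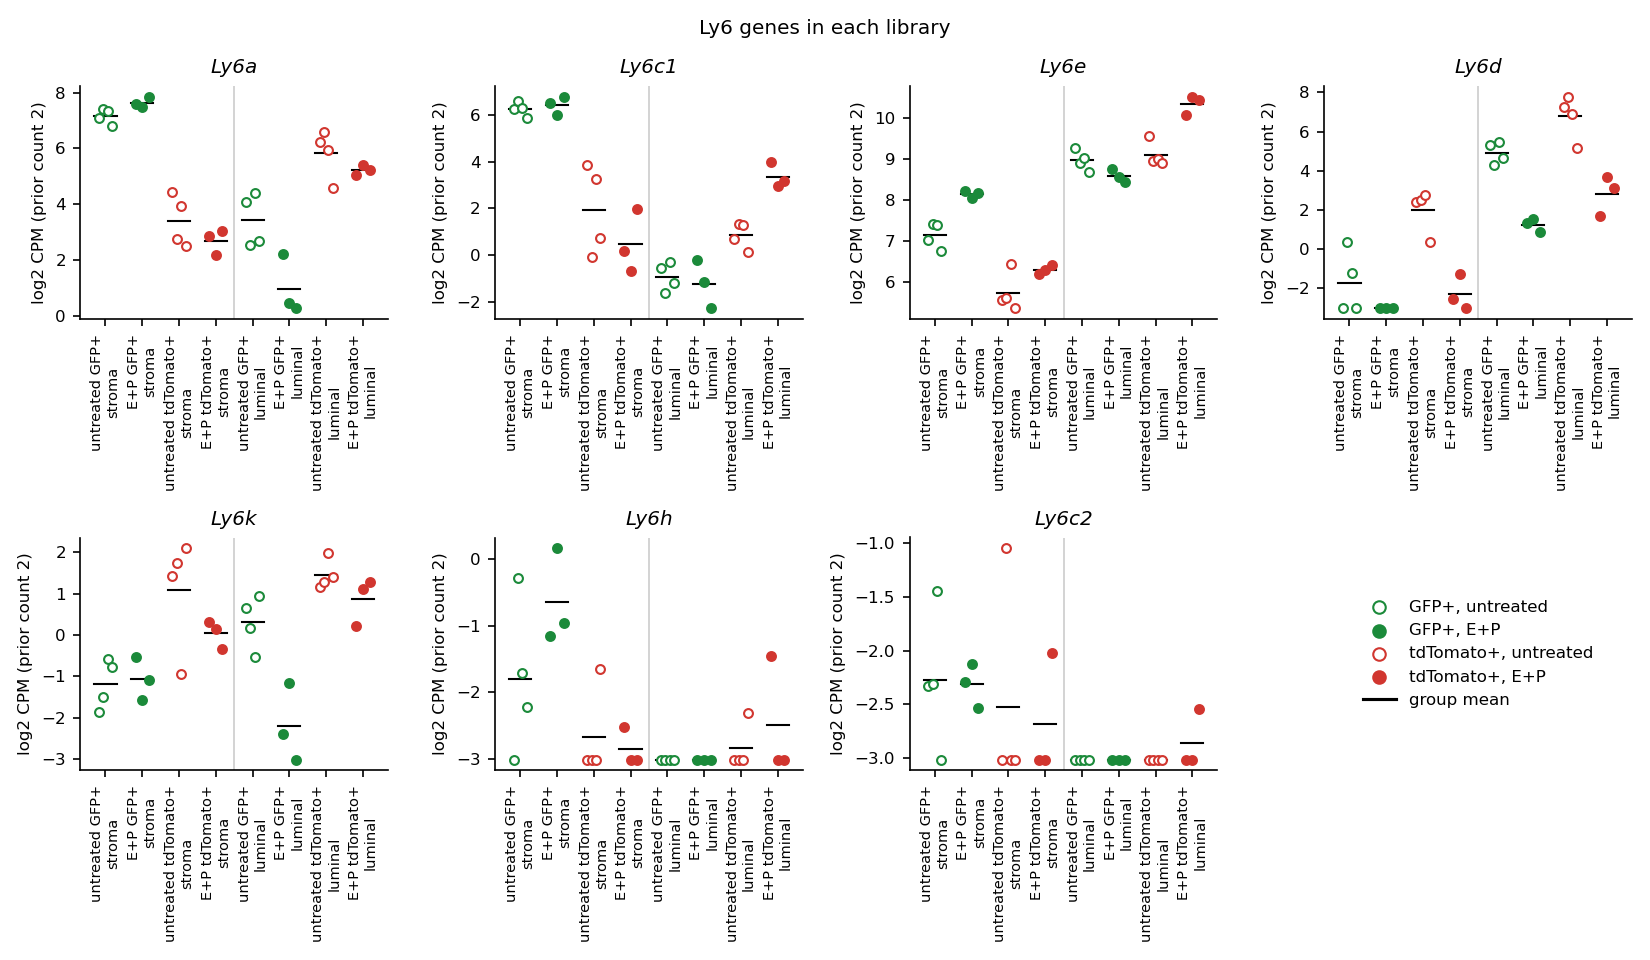
Each panel shows 1 gene, with log2 CPM (prior count 2) on the y axis and the 8 groups on the x axis; points are libraries (open untreated, filled E+P), black lines are group means, and the grey line parts stroma from luminal cells. *Ly6a* is highest in GFP+ stroma and lowest in GFP+ luminal cells of E+P mice, *Ly6e* is highest in tdTomato+ luminal cells of E+P mice, and *Ly6h* and *Ly6c2* stay near the floor.

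*Ly6a*, the gene of Sca1, was abundant in GFP+ stroma and in tdTomato+ luminal cells and low in the other 2 populations. In GFP+ stroma of mice 1 to 4 without treatment it stood at 135, 171, 163 and 110 CPM, and in the 3 E+P mice at 191, 178 and 231 CPM. In tdTomato+ stroma the values were 21.5, 6.59, 15.2 and 5.54 CPM without treatment and 7.14, 4.4 and 8.2 CPM after E+P. All 7 GFP+ stromal libraries lay above all 7 tdTomato+ stromal libraries.

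In luminal cells the order was turned around. The untreated GFP+ luminal libraries held 17, 5.64, 20.8 and 6.29 CPM, and those of E+P mice held 4.49, 1.24 and 1.08 CPM. In tdTomato+ luminal cells *Ly6a* was counted at 75.4, 95.7, 60.6 and 23.6 CPM without treatment and at 32.5, 42.2 and 37 CPM after E+P. The groups did not overlap, with GFP+ above tdTomato+ cells in 7 of 7 mice in stroma and below them in 7 of 7 mice in luminal cells. The fitted log2 fold change of GFP+ over tdTomato+ cells was 4.23 ± 0.30 (SE) in stroma and -3.25 ± 0.45 in luminal cells, both given as a description of the gene chosen for them.

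Ranked by group mean, *Ly6a* ran from E+P GFP+ stroma (200 ± 27.9 CPM, SD, n = 3) and untreated GFP+ stroma (145 ± 27.9 CPM, n = 4) over untreated (63.8 ± 30.4 CPM) and E+P tdTomato+ luminal cells (37.3 ± 4.85 CPM) to untreated GFP+ luminal cells (12.4 ± 7.63 CPM), untreated tdTomato+ stroma (12.2 ± 7.55 CPM), E+P tdTomato+ stroma (6.58 ± 1.96 CPM) and E+P GFP+ luminal cells (2.27 ± 1.92 CPM). From untreated tdTomato+ luminal cells on down, neighbours in this order overlapped library by library, apart from the step from E+P tdTomato+ to untreated GFP+ luminal cells. The first 3 groups did not overlap one another. Averaged over subsets and treatments, *Ly6a* was higher in stroma than in luminal cells, by 1.29 ± 0.26 on the log2 scale (edgeR adjusted p = 0.000145). This average does not hold for tdTomato+ cells, whose group means were lower in stroma than in luminal cells in both treatments.

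In 2 of the untreated groups, the libraries with more *Ly6a* were also those with more markers of cells known to carry Sca1. In untreated tdTomato+ stroma, replicates 1 and 3 held fibroblast markers of 6000 and 7520 CPM against 2870 and 3280 CPM in replicates 2 and 4, and they were the libraries with the higher *Ly6a*. In untreated GFP+ luminal cells, summed hormone-sensing luminal markers (among them *Esr1*, *Pgr* and *Prlr*) were 1290 and 2000 CPM in replicates 1 and 3 and 492 and 315 CPM in replicates 2 and 4, and *Ly6a* was again higher in replicates 1 and 3. These markers stood at 3920 to 5580 CPM in untreated and 2420 to 3670 CPM in E+P tdTomato+ luminal cells, and at only 206 to 373 CPM in E+P GFP+ luminal cells, where *Ly6a* was lowest. In GFP+ stroma the libraries did not follow this pattern, since the most *Ly6a* stood in the library with the fewest fibroblast markers both without treatment (171 CPM beside 36300 CPM) and after E+P (231 CPM beside 53700 CPM). The part of these cells in the differences of *Ly6a* was not tested.

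*Ly6c1*, one of the Ly6C genes, had the order of *Ly6a* in both lineages. In GFP+ stroma it was counted at 77.2, 95.5, 78.3 and 58 CPM without treatment and at 90.7, 63.4 and 110 CPM after E+P. In tdTomato+ stroma it was uneven, with 14.5, 0.812, 9.56 and 1.55 CPM without treatment and 1.02, 0.494 and 3.85 CPM after E+P. Every GFP+ stromal library lay above every tdTomato+ one, and the higher tdTomato+ values again belonged to untreated replicates 1 and 3.

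The luminal levels of *Ly6c1* were far lower. GFP+ luminal cells held 0.57, 0.201, 0.685 and 0.314 CPM without treatment and 0.748, 0.323 and 0.0832 CPM after E+P. In tdTomato+ luminal cells the values were 1.5, 2.43, 2.31 and 0.969 CPM without treatment and 15.7, 7.61 and 8.84 CPM after E+P. The tdTomato+ libraries all lay above the GFP+ libraries, most of all in the E+P mice.

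Between GFP+ and tdTomato+ cells, *Ly6c1* differed by a log2 fold change of 4.59 ± 0.62 in stroma (edgeR adjusted p = 6.24e-05) and -3.43 ± 0.41 in luminal cells (edgeR adjusted p = 1.64e-05). All 7 mice had more *Ly6c1* in their GFP+ than their tdTomato+ stroma and more in their tdTomato+ than their GFP+ luminal cells, each with p = 0.0156 in a two-sided exact sign-flip test within mice, the smallest that 7 pairs allow. The difference between these differences was 7.99 ± 0.78 (edgeR adjusted p = 1.92e-08). The tdTomato+ stroma libraries of untreated replicates 1 and 3 held the most *Ly6c1* of that subset. Leaving them out, a choice made after seeing the data, raises the stromal difference by construction. The value without them, 5.84, is therefore given as a description without a test. *Ly6c1* was also higher in stroma than in luminal cells averaged over subsets and treatments, by 3.65 ± 0.39 (edgeR adjusted p = 1.57e-08). In tdTomato+ cells of E+P mice the order was the other way, with means of 1.79 CPM in stroma and 10.7 CPM in luminal cells.

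Because *Ly6a* and *Ly6c1* share sequence, their reads were set side by side. In untreated luminal cells *Ly6c1* reads came to 3.3% to 5% of *Ly6a* reads in GFP+ libraries and 1.98% to 4.11% in tdTomato+ libraries, so these small *Ly6c1* counts (2 to 40 reads) kept a like ratio to *Ly6a* in both subsets. Reads of *Ly6a* counted as *Ly6c1* cannot be told from *Ly6c1* there. In GFP+ stroma the ratio was far higher, at 47.9% to 57% without treatment and 35.7% to 47.8% after E+P. It was also higher in tdTomato+ luminal cells of E+P mice, at 18% to 48.3%, on 178 to 196 *Ly6c1* reads. In GFP+ luminal cells of E+P mice it was 7.69% to 26.1%, on 2 to 11 *Ly6c1* reads. It varied most in tdTomato+ stroma, from 12.3% to 67.7% without treatment and from 11.2% to 47% after E+P.

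**Figure D2:**
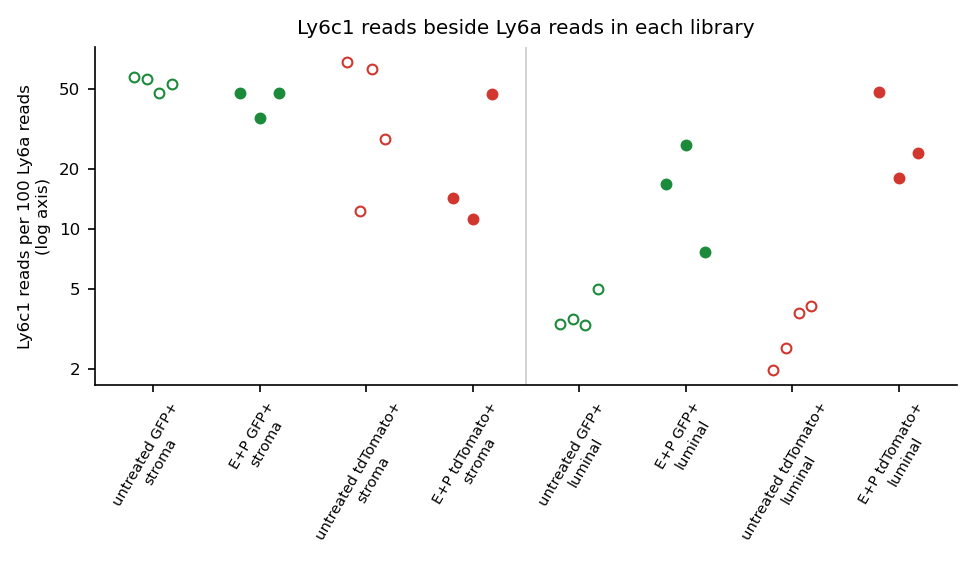
*Ly6c1* reads as a percentage of *Ly6a* reads (y axis, log scale) in each library of the 8 groups (x axis), open points untreated and filled points E+P. The 8 untreated luminal libraries sit between 1.98% and 5%, while GFP+ stroma sits between 35.7% and 57% and tdTomato+ luminal cells of E+P mice between 18% and 48.3%.

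*Ly6e*, the gene with the most reads of the 7, had the order of *Ly6a* in stroma and, in luminal cells, mainly after E+P. In GFP+ stroma it stood at 129, 169, 167 and 108 CPM without treatment and at 297, 266 and 286 CPM after E+P. In tdTomato+ stroma it stood at 46.7, 48.2, 86.5 and 40.7 CPM without treatment and at 73.2, 77.6 and 84.7 CPM after E+P. GFP+ stroma was higher in 7 of 7 mice, and within each treatment the subsets did not overlap.

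Luminal cells held more *Ly6e* than stroma. The GFP+ luminal libraries held 616, 477, 523 and 408 CPM without treatment and 433, 374 and 348 CPM after E+P. The tdTomato+ luminal libraries held 747, 495, 508 and 477 CPM without treatment and 1070, 1460 and 1390 CPM after E+P. The subsets overlapped without treatment and were far apart after E+P.

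The log2 fold change of *Ly6e* between GFP+ and tdTomato+ cells was 1.59 ± 0.15 in stroma (edgeR adjusted p = 2.13e-07) and -0.98 ± 0.13 in luminal cells (edgeR adjusted p = 3.08e-05), and the lineages differed by 2.56 ± 0.21 (edgeR adjusted p = 3.95e-10). In exact sign-flip tests within mice p was 0.0156 in stroma and 0.0312 in luminal cells, where tdTomato+ cells were higher in 6 of 7 mice. The luminal difference rested on the E+P mice, with -0.15 ± 0.16 in untreated mice (edgeR adjusted p = 0.522) and -1.80 ± 0.20 in E+P mice (edgeR adjusted p = 1.53e-05). *Ly6e* was lower in stroma than in luminal cells, by -2.41 ± 0.11 on the log2 scale (edgeR adjusted p = 2.9e-16).

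*Ly6d* and *Ly6k* did not have the opposite order, being lower in GFP+ cells wherever they were called. *Ly6d* was a luminal gene here, at 39.3, 19.3, 44 and 25.4 CPM in untreated GFP+ and 152, 221, 120 and 35.5 CPM in untreated tdTomato+ luminal cells. After E+P it stood at 2.38, 2.75 and 1.71 CPM in GFP+ and 3.12, 12.7 and 8.7 CPM in tdTomato+ luminal cells. The tdTomato+ luminal cells held more *Ly6d* than the GFP+ cells of the same mouse in 7 of 7 mice (exact sign-flip p = 0.0156), although across mice the untreated groups overlapped.

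The luminal difference of *Ly6d* was -1.99 ± 0.41 on the log2 scale (edgeR adjusted p = 0.00177), and without E+P replicate 2 or 3 the adjusted p of edgeR was 0.0149 or 0.0153, while that of limma-voom with all mice was 0.0381. In stroma *Ly6d* was at most 1.16 CPM in GFP+ cells and reached 1.17 to 6.77 CPM in untreated tdTomato+ cells, where luminal epithelial markers also summed to between 20.1 and 505 CPM, and the stromal difference was not called (edgeR adjusted p = 0.0143, or 0.00522 without untreated replicate 2). Stroma was lower than luminal cells by -6.35 ± 0.52 on the log2 scale (edgeR adjusted p = 5.73e-10).

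*Ly6k* was scarce, at 582 reads over all 28 libraries. In luminal cells it ranged from 0.571 to 1.81 CPM in untreated GFP+ and from 2.12 to 3.83 CPM in untreated tdTomato+ libraries, and from 0 to 0.323 CPM and from 1.04 to 2.33 CPM after E+P, so the subsets did not overlap within a treatment. In stroma it held 0.151 to 0.568 CPM in GFP+ libraries, on 2 to 9 reads each and near the floor, and 0.398 to 4.18 CPM in tdTomato+ libraries. There it passed the low-count filter through the tdTomato+ libraries. The log2 fold change of *Ly6k* was -2.49 ± 0.46 in luminal cells (edgeR adjusted p = 0.000539) and -2.11 ± 0.55 in stroma (edgeR adjusted p = 0.00378). The stromal call was lost without any one of untreated replicates 1, 2 and 4 and E+P replicates 1, 2 and 3 (edgeR adjusted p = 0.0113 to 0.0227), with the mouse as a block (-2.03, edgeR adjusted p = 0.0206) and with limma-voom (adjusted p = 0.0269). The difference of *Ly6k* between the lineages was 0.36 ± 0.69 (edgeR adjusted p = 0.74), and its levels in stroma and luminal cells as a whole differed by -0.33 ± 0.37 (edgeR adjusted p = 0.445).

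*Ly6h* and *Ly6c2* were near the floor. *Ly6h* had 52 reads in all, 44 of them in GFP+ stroma, where it reached 1 CPM in E+P replicate 2. In each of the 7 GFP+ luminal libraries it had 0 reads. *Ly6c2* had 17 reads in 9 of 28 libraries, against 9881 reads of its near copy *Ly6c1*. Neither passed the low-count filter of the edgeR fit. Of 7 mice, 5 had more *Ly6h* in GFP+ than in tdTomato+ stroma and 1 had less (exact sign-flip p = 0.0625), and for *Ly6c2* 4 had more and 2 had less (exact sign-flip p = 0.438). Exact permutation tests of E+P gave p of at least 0.2 for both genes in the 4 populations.

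**Figure D3:**
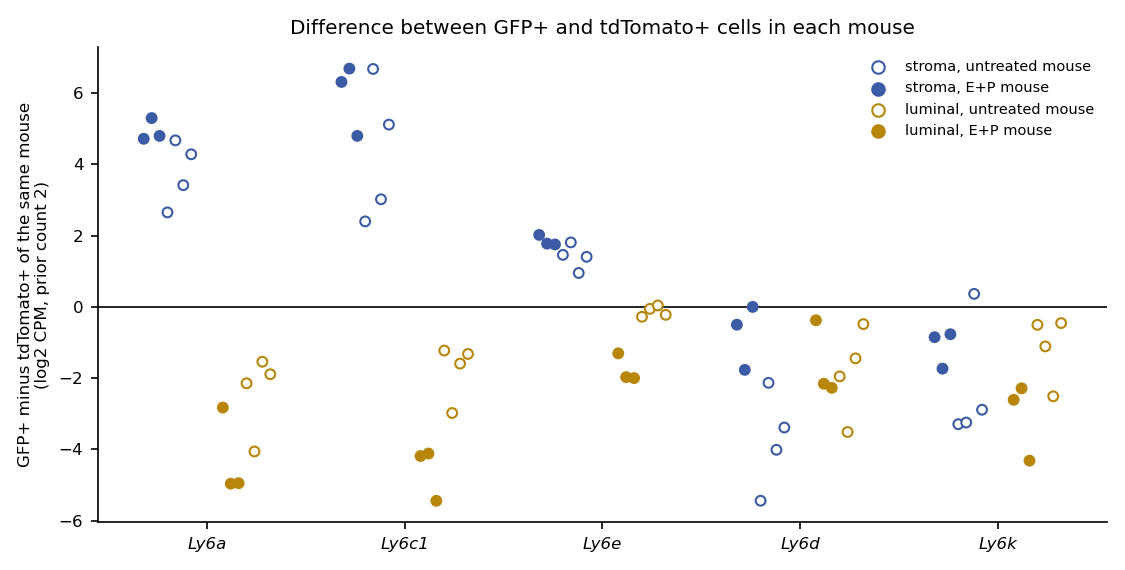
GFP+ minus tdTomato+ log2 CPM (y axis, prior count 2) of the same mouse for the 5 tested genes (x axis), in stroma (blue) and luminal cells (gold), with open points for untreated and filled points for E+P mice. *Ly6a* and *Ly6c1* lie above 0 in stroma and below 0 in luminal cells in 7 of 7 mice, *Ly6e* does so in stroma with its untreated luminal points near 0, and *Ly6d* lies below 0 in luminal cells in 7 of 7 mice.

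In all, 3 of the 4 tested relatives were called between GFP+ and tdTomato+ stroma, where 42.0% of all genes tested were called. *Ly6c1* and *Ly6e* were higher, and *Ly6k* was lower on GFP+ values near the floor. Between the luminal subsets 4 of 4 were called, all lower in GFP+ cells, against 34.7% of all genes. The difference between the lineages was called for *Ly6c1* and *Ly6e* but not for *Ly6d* and *Ly6k*, against 33.2% of all genes. Thus 2 of 4 tested relatives, *Ly6c1* and *Ly6e*, were higher in GFP+ stroma and lower in GFP+ luminal cells with both calls, an order that 5.85% of 15037 genes had.

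The same order was looked for within each treatment, a choice made after seeing the data. In E+P mice *Ly6c1* and *Ly6e* again had it with both calls, against 3.56% of all genes. In untreated mice 0 relatives had it, against 1.70% of all genes, since edgeR called 0 of 4 between the untreated luminal subsets, where 15.4% of all genes were called. At an unadjusted p under 0.05, 3 of 4 passed there (*Ly6c1*, *Ly6d* and *Ly6k*), a threshold for which no share of all genes is given. The edgeR adjusted p was 0.0146 for *Ly6c1* (log2 fold change -1.94 ± 0.53) and 0.0103 for *Ly6d*. Between the luminal subsets of E+P mice 3 of 4 were called (*Ly6c1*, *Ly6e* and *Ly6k*), against 25.4% of all genes. In untreated stroma 3 of 4 were called, against 28.5% of all genes, and *Ly6c1* and *Ly6e* were also called in stroma of E+P mice (log2 fold changes 5.65 ± 0.97 and 1.84 ± 0.23, edgeR adjusted p = 0.000691 and 1.02e-05). The difference between the lineages was called for *Ly6c1* and *Ly6e* in both treatments, against 20.3% and 23.2% of all genes. Whether *Ly6c1* and *Ly6e* differ between treatments in this order was tested only within a lineage.

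Estrogen plus progesterone went with a rise of *Ly6c1* and *Ly6e* in tdTomato+ luminal cells and a fall of *Ly6d* in both luminal subsets. In tdTomato+ luminal cells 3 of 5 tested members changed, against 14.1% of all genes. *Ly6c1* rose by a log2 fold change of 2.61 ± 0.49 (edgeR adjusted p = 0.0016), from 1.8 ± 0.69 CPM (SD, n = 4) to 10.7 ± 4.36 CPM (n = 3). *Ly6e* rose by 1.25 ± 0.18 (edgeR adjusted p = 0.000234), from 557 ± 128 to 1310 ± 211 CPM. *Ly6d* fell by 3.97 on the log2 scale (SE 0.63, edgeR adjusted p = 0.000826), from 132 ± 77.1 to 8.16 ± 4.79 CPM, a call lost in a fit of only these 2 groups (edgeR adjusted p = 0.0119). For each of the 3 genes the treated and untreated libraries did not overlap, with p = 0.0286 in a two-sided exact permutation test of 3 against 4 mice, the smallest it allows.

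Endothelial cells also express *Ly6c1*, and the summed endothelial markers of tdTomato+ luminal cells stood at 67.6 ± 47.6 CPM without treatment and at 235 ± 9.83 CPM after E+P. Nearly all of that sum was *Vwf*, at a mean of 226 CPM after E+P, while *Pecam1* stood at 0.721 to 1.03 CPM. In tdTomato+ stroma after E+P the endothelial sum was 439 to 575 CPM with *Ly6c1* at 0.494 to 3.85 CPM. The part of endothelial cells in the rise of *Ly6c1* was not tested.

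In GFP+ luminal cells 1 of 5 tested members changed, against 5.96% of all genes. *Ly6d* fell by 3.83 on the log2 scale (SE 0.66, edgeR adjusted p = 0.00303), from 32 ± 11.6 to 2.28 ± 0.53 CPM, and the call was lost without untreated replicate 1 or 3 or any one of the 3 E+P replicates (edgeR adjusted p = 0.0103 to 0.0241) and with limma-voom (adjusted p = 0.0385). *Ly6a* stood at 5.64 to 20.8 CPM without treatment and 1.08 to 4.49 CPM after E+P, a log2 fold change of -2.53 ± 0.66 that was not called (edgeR adjusted p = 0.025, exact permutation p = 0.0286) but passed with DESeq2 (adjusted p = 0.00013). The value of *Ly6k* was -3.19 ± 0.75 (edgeR adjusted p = 0.0117, DESeq2 adjusted p = 0.000164), on at most 23 reads per library. *Ly6c1* and *Ly6e* had log2 fold changes of -0.37 ± 0.65 and -0.40 ± 0.18, neither called.

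The E+P response of *Ly6e* differed between the luminal subsets, by -1.65 ± 0.25 on the log2 scale (edgeR adjusted p = 0.00186), the only member called of 5, against 2.27% of all genes. Without E+P replicate 2 or 3 the adjusted p of edgeR was 0.0302 or 0.0317. The same difference was -2.98 ± 0.82 for *Ly6c1* (edgeR adjusted p = 0.0429, DESeq2 adjusted p = 0.00499) and -1.78 ± 0.85 for *Ly6a* (edgeR adjusted p = 0.244), neither called by edgeR.

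In stroma 0 of 5 tested members were called with E+P by edgeR in GFP+ cells, against 0.231% of all genes, and 0 of 5 in tdTomato+ cells, against 0.124%. At an unadjusted p under 0.05, 2 of 5 passed in GFP+ stroma (*Ly6d* and *Ly6e*) and 3 of 5 in tdTomato+ stroma (*Ly6a*, *Ly6d* and *Ly6e*). No share of all genes is given for this looser threshold, so these counts have no background beside them. *Ly6d* had only 20 reads in all of GFP+ stroma. Exact permutation p was 0.429 for *Ly6d* and 0.0286 for *Ly6e* in GFP+ stroma. In tdTomato+ stroma it was 0.314 for *Ly6a*, 0.0286 for *Ly6d* and 0.143 for *Ly6e*. The nearest to a call was *Ly6e* in GFP+ stroma, at 143 ± 30.1 CPM without treatment and 283 ± 15.6 CPM after E+P, a log2 fold change of 0.99 ± 0.21 (edgeR adjusted p = 0.0404) with groups that did not overlap. It passed without untreated replicate 3 (edgeR adjusted p = 0.00347), by the Wald test of DESeq2 (adjusted p = 0.00263) and by limma-voom (adjusted p = 0.00736). That was the only 1 of 7 fits with a mouse left out to pass, and the edgeR adjusted p reached 0.251 among them. DESeq2 called 1 of 5 members in each stromal subset, and limma-voom called 1 in GFP+ and 0 in tdTomato+ stroma. The shares of all genes above are those of edgeR, and none is given for DESeq2 or limma-voom. *Ly6a* had 0.47 ± 0.36 in GFP+ stroma (edgeR adjusted p = 0.898) and -0.89 ± 0.40 in tdTomato+ stroma (edgeR adjusted p = 0.309). The stromal subsets differed in the response of 0 of 5 members by edgeR, against 0.0450% of all genes, with *Ly6a* alone at an unadjusted p under 0.05 and 0 called by DESeq2 or limma-voom.

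**Figure D4:**
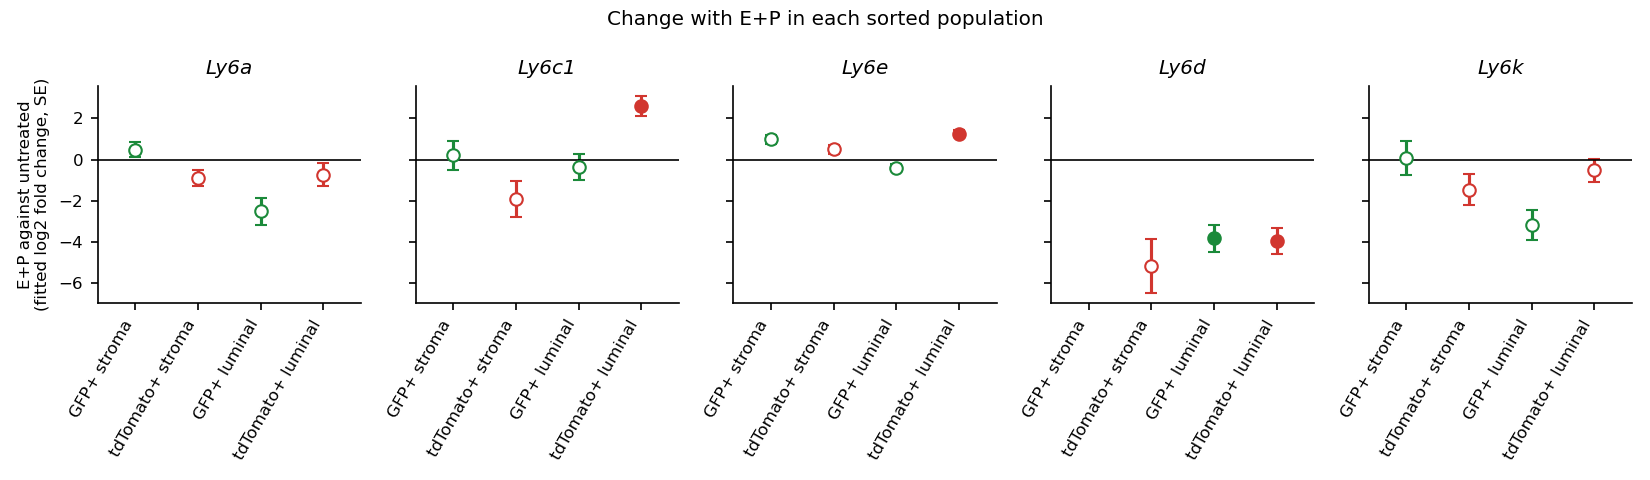
Fitted log2 fold change of E+P over untreated (y axis, bars SE) for the 5 tested genes in the 4 sorted populations (x axis), with filled points for calls at an adjusted p under 0.01. *Ly6c1* and *Ly6e* are called above 0 in tdTomato+ luminal cells and *Ly6d* below 0 in both luminal subsets; *Ly6d* in GFP+ stroma is left out, since its E+P libraries are all at 0.

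Between the lineages, averaged over subsets and treatments, 4 of 5 tested members differed, close to the 63.5% of all genes that did. *Ly6a* and *Ly6c1* were higher in stroma, and *Ly6d* and *Ly6e* lower. In tdTomato+ cells, however, *Ly6a* in both treatments and *Ly6c1* after E+P had lower means in stroma than in luminal cells. Levels of different genes can be compared only per length. In untreated GFP+ stroma *Ly6a* stood at 152 CPM per kb of its longest transcript, against 91.5 for *Ly6c1* and 62.7 for *Ly6e*. Per kb of merged exons *Ly6c1* (46.0) and *Ly6e* (37.8) were further below *Ly6a*. In untreated tdTomato+ luminal cells *Ly6d* (177 CPM per kb) and *Ly6e* (147 CPM per kb) both stood above *Ly6a* (52.9 CPM per kb) over merged exons, while over the longest transcript *Ly6e* came first, at 244 CPM per kb. After E+P *Ly6e* reached 346 CPM per kb of merged exons in these cells, the highest group mean of the 7 genes.

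Of the 39 other genes listed for the wider Ly6 and urokinase receptor family, 33 were in the count table and few were expressed. In stroma 1 of 6 tested was called between the subsets (*Plaur*, higher in GFP+ cells), against 42.0% of all genes. In luminal cells 4 of 11 were called (*Cd59a* and *Cd59b* higher, *Ly6g6c* and *Ly6g6e* lower in GFP+ cells), close to the 34.7% of all genes. Of the 4 tested in both lineages, 0 had the order of *Ly6a* with both calls, against 5.85% of 15037 genes. At that share 0 of 4 is not unusual, so it sets no contrast with the relatives. *Plaur*, the urokinase receptor, had a log2 fold change of 1.79 ± 0.27 in stroma (edgeR adjusted p = 4.67e-05) and -0.29 ± 0.20 in luminal cells (edgeR adjusted p = 0.245). *Lynx1*, a modulator of nicotinic receptors, had 0.63 ± 0.22 and -0.40 ± 0.14, the signs of *Ly6a* but neither called (edgeR adjusted p = 0.0266 and 0.0295), and its lineage difference was called (1.02 ± 0.29, edgeR adjusted p = 0.00502). *Cd59a*, a complement inhibitor, had 1.53 ± 0.21 in luminal cells (edgeR adjusted p = 5.71e-05), the reverse of *Ly6a*, with -0.40 ± 0.27 in stroma (edgeR adjusted p = 0.223).

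*Lypd3* had the highest single group mean of these genes, at 48.2 ± 19.1 CPM in untreated GFP+ luminal cells (n = 4), and was not called between luminal subsets (log2 fold change -0.00319 ± 0.21, edgeR adjusted p = 0.994). *Ly6g6e* and *Ly6g6c*, of the Ly6 cluster on another chromosome, had luminal log2 fold changes of -1.86 ± 0.25 (edgeR adjusted p = 4.52e-05) and -2.18 ± 0.44 (edgeR adjusted p = 0.00097). With E+P 3 of 11 fell in GFP+ luminal cells (*Lynx1*, *Plaur* and *Lypd3*), against 5.96% of all genes called. In tdTomato+ luminal cells *Lynx1* fell while *Lypd6b* and *Acrv1* rose, 3 of 11 against 14.1% of all genes. In stroma 0 of 6 were called with E+P in either subset (0.231% and 0.124% of all genes). At an unadjusted 0.05 by edgeR, 3 of 6 (*Gpihbp1*, *Lypd1* and *Plaur*, all lower) passed in tdTomato+ and 0 of 6 in GFP+ stroma. For that looser threshold no share of all genes is given.

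Several Ly6 genes are interferon-inducible, so 20 interferon response genes were counted beside them. In GFP+ against tdTomato+ stroma 14 of 20 were called higher and 0 lower, against 42.0% of all genes called in either direction. Their median log2 fold change was 1.4, beside a median of -0.01 over all genes tested. In luminal cells 3 of 19 tested were called higher and 3 lower, close to the 34.7% of all genes, with a median of 0.197. With E+P in tdTomato+ luminal cells, where *Ly6c1* and *Ly6e* rose, 6 of 19 fell and 1 rose (*Bst2*), against 14.1% of all genes called. The median there was -1.1, beside -0.05 over all genes. The part of interferon in the levels of *Ly6c1* and *Ly6e* was not tested.

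The genes most like *Ly6a* over the 28 libraries, by Pearson's r of log2 CPM among 11396 genes with a highest group mean of at least 10 CPM, were *St3gal1* (r = 0.965), *Slc25a24* (0.937), *Tmem159* (0.935), *Slc35f5* (0.935) and *Man2b2* (0.934). Only 3 of these 5 stayed among the first 5 with Spearman's rho (without *Tmem159* and *Man2b2*) or with library-size scaling (without *Slc25a24* and *Slc35f5*), while *St3gal1* ranked 1 in each. These points share mice, groups and depth, so r is a description. By the same measure *Ly6c1* had r = 0.848, rank 71, while *Ly6e* had 0.158, *Ly6k* 0.00655 and *Ly6d* -0.155. *Ly6e* thus has the signs of *Ly6a* between the subsets but not its pattern over all groups, being higher in luminal cells than in stroma.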

How the data were processed

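Read counts per gene as deposited by the authors were used without realignment. The libraries were made with a stranded total RNA kit for small inputs, and the counts with STAR 2.5.2a on GRCm38.p5 (submitters' processing notes), and carry no molecular identifiers or normalization. The study states that RNA quality ranged widely and that fragmentation time was changed for RNA of lower quality. Quality per library is not given in the sources used here. Libraries were grouped by title, and libraries of the same treatment and number came from the same mouse. The members and lists were chosen with earlier results of these data known. Of the gene IDs, 50376 matched GENCODE M21, from which symbols and positions were taken.

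Counts were scaled by TMM, filtered with filterByExpr and tested with the robust quasi-likelihood F-test of edgeR 4.0.16 (R 4.3.3), with 4 groups per lineage or 8 overall and Benjamini-Hochberg adjustment over all genes. An adjusted p under 0.01, the threshold of the study, was a call. SE is the absolute log2 fold change divided by the square root of F. Exact permutation and sign-flip tests on log2 CPM (prior count 2) were two-sided. Coding sequences and promoters were aligned with Biopython 1.88. Alternatives were DESeq2 1.42.0 (size factors and Wald test), limma 3.58.1 voom, library-size scaling, no filter, a threshold of 0.05, only the groups compared, a block for mouse or replicate number, and each mouse left out. Simulated counts with 200 changed genes tested the fits. For E+P in GFP+ stroma 14% of 2-fold and 49% of 4-fold changes were called, and in tdTomato+ stroma 30% and 61%. For the difference in E+P response between stromal subsets the shares were 3% and 47%. For E+P in luminal cells they were 25% and 67% in GFP+ and 28% and 64% in tdTomato+ cells. For the difference in response between luminal subsets they were 11% and 51%. Uncalled values of E+P in either lineage can therefore hide changes of this size. Named genes are the 7 members, the 6 most abundant tested family genes and the 5 genes most like *Ly6a*. Others named in counts were named after their values were seen.

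Same-numbered libraries of a treatment are from the same animal, as numbered in the titles. Deviations from group means correlated at a mean r of 0.0496 within mice in stroma and 0.157 in luminal cells, against -0.0194 and -0.0605 between mice.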

Additional observations from a re-analysis of the deposited data

Results flagged for a closer look

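For *Ly6c1* and *Ly6e*, the difference of GFP+ from tdTomato+ cells was not the same in stroma and luminal cells. A test of this difference itself gave 7.99 and 2.56 on the log2 scale. The E+P response of *Ly6e* differed between GFP+ and tdTomato+ luminal cells, by -1.65 on the log2 scale.

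In the untreated groups of 4 libraries, 5 of 25 sets of member values had 1 library far from the others (gap over range above Dixon's critical value). Chance flags about 1 set in 20. For *Ly6e* these were replicate 1 of tdTomato+ luminal cells at 747 CPM, against 477 to 508 CPM in the others, and replicate 3 of tdTomato+ stroma at 86.5 CPM, against 40.7 to 48.2 CPM. The remaining sets rest on 2 to 4 reads in a single library with 0 reads in the rest. They are *Ly6h* in tdTomato+ luminal replicate 4 (0.0775 CPM), *Ly6h* in tdTomato+ stroma replicate 4 (0.194 CPM) and *Ly6c2* in tdTomato+ stroma replicate 2 (0.361 CPM).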

How the results depend on the processing

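Of 169 recomputed counts of called members, 145 stayed within 1.5 times the value reported, and 0 of 18 fold changes that turned direction belonged to a called result. The counts between GFP+ and tdTomato+ stroma, between the lineages and for E+P in tdTomato+ luminal cells stayed within that range. In untreated mice alone, 0 relatives were called between luminal subsets (4 in all mice) and 0 had the order of *Ly6a* (2 in all mice).

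For E+P in GFP+ stroma, where edgeR called 0 members, 1 was called with DESeq2, with limma-voom, at an adjusted p under 0.05 and with only the groups compared, 2 without a filter, and 0 to 1 with a mouse left out. In tdTomato+ stroma the count of 0 became 1 with DESeq2 and 3 without a filter. In GFP+ luminal cells the count of 1 became 2 with library size only, 3 with DESeq2 or at 0.05, 0 with limma-voom, and 0 to 1 with a mouse left out. The difference in E+P response between luminal subsets had a count of 1 that became 2 with DESeq2 or at 0.05 and fell to 0 without E+P replicate 2 or 3 (0 to 1 over the mice left out). The same difference between stromal subsets went from 0 to 2 without a filter. No share of all genes is given for these alternatives, so their counts have no background beside them. The cause of the changes was not tested, apart from the smaller number of mice or the higher threshold where these define the alternative.

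With mouse as a block, the call of *Ly6k* between stromal subsets was lost (-2.03, edgeR adjusted p = 0.0206), and no other call between subsets changed. In a block of replicate number, which pairs different mice across treatments, *Ly6c1* in GFP+ stroma turned to -0.20. Uncalled values that turned direction with a mouse left out were *Ly6c1* with E+P in GFP+ stroma (-0.001054 to 0.38) and GFP+ luminal cells (-1.25 to 0.21), *Ly6k* with E+P in GFP+ stroma (-0.31 to 0.41), between the lineages (-0.59 to 0.24) and in the subset difference (-0.195 to 1.46, and -1.70 in untreated mice), and *Ly6d* in the difference in E+P response between stromal subsets (-0.81 to 1.60, 0.23 with DESeq2, 2.96 with limma-voom and 0.57 with the mouse block) and between luminal subsets (-0.40 to 0.46, and -0.12 with limma-voom). Between 2 and 40 *Ly6c1* reads in untreated luminal libraries, and at most 65 *Ly6k* reads in any, limit what could be shown.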
